A study of Mus musculus with 16 samples.

Results

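The consensus H3K27me3 peaks of mouse chromosome 11 were examined for whether their counts follow the number of copies of the chromosome or the amount of mark on each copy. All peaks that the deposited list places on chromosome 11 were taken, which gave 5808 of 102957 peaks. They ran from position 3331112 to 121974713 of the build mm10 and covered 39.2 Mb. The mark, trimethylation of lysine 27 on histone H3, was profiled by ChIP-seq. The cells were mouse embryonic stem cells on gelatin, kept in a serum medium to which LIF, CHIR99021 and PD0325901 had been added. The study asked how the long non-coding RNA Firre, induced with doxycycline, affects the mark.

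The labels gave 4 lines. They were a line labelled Firre KO without a transgene (called here the line labelled KO control), a Firre KO line with an inducible Firre transgene (KO transgene), WT cells (WT control) and WT cells with the inducible transgene (WT transgene). Samples of each line were taken at 0 h and at 48 h, and all 16 libraries, those of lines without a transgene included, carry the treatment label doxycycline. A condition was 1 H3K27me3 library with its matched input library, so each background had 4 conditions from 2 lines and no condition had a replicate. Because the 0 h and 48 h samples of a line share that line, tests between backgrounds rest on 2 lines against 2, and no label says that samples came from separate cultures. The p-values therefore measure only the spread between these libraries, which may be technical. The labels do not say whether a line is 1 clone, nor which promoter drives the transgene.

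Input DNA is sheared chromatin sequenced without antibody, so its counts over a region follow how many copies of that region the cells hold. Polycomb repressive complex 2 (PRC2) places H3K27me3, and in embryonic stem cells the mark covers the CpG-rich promoters of developmental genes that are kept silent. Where a chromosome is present in extra copies, a ChIP library gains counts on it even if each copy carries the same mark. Dividing by matched input separates these cases. Gain of chromosome 11 is a recurrent change in cultured mouse embryonic stem cells.

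H3K27me3 libraries held 10380781 to 14787938 counts over all peaks, and input libraries held 3340654 to 6244333, with the KO control library at 0 h lowest in both. On chromosome 11 a library held 1054973 to 1419640 H3K27me3 counts and 371388 to 693433 input counts. The median peak there had a mean of 81 H3K27me3 and 46.4 input counts, so single peaks were much less precise than the chromosome. Intervals below cover counting error only. At the peak that lies at Firre (chrX:50569315-50570264), input counts per base were 11.1 times the average of the X peaks in the line labelled KO control, 10.7 times in KO transgene, 0.694 times in WT control and 14.9 times in WT transgene. Input at this peak was thus as high in the line labelled KO control as in KO transgene, against its label, and the sources used here do not say whether the peak lies in the deleted part. As a check of the cell type, 27 of 30 developmental transcription factor genes on the chromosome held a peak. This compares with 4 of 29 broadly expressed genes on the chromosome and 3 of 20 pluripotency genes taken from any chromosome.

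Sequence is shown for 3 start sites that lie inside strong peaks and stand for the kinds of locus described below, with CG dinucleotides in capitals, because PRC2 targets in these cells are often CpG-rich promoters. Gm31954 is an RNA gene beside Ntn1 (chr11:68400150-68400449, plus strand), in a peak with more mark per input in the KO lines. Ebf1 (chr11:44619978-44620277, plus strand) encodes a B-cell and neuronal transcription factor and had more mark per input over its whole gene. Neurod2 (chr11:98329596-98329895, minus strand) encodes a neuronal transcription factor and had no detectable difference per input. Each runs from 250 bases before to 50 bases after a RefSeq start site in GRCm38.p6, the same build as mm10, and they hold 25, 17 and 16 CG in 300 bases. At Gm31954 and Ebf1 the start site with the most CG is shown. Other start sites in the same peaks held 14, 2 and 2 CG at Gm31954 and 9 at Ebf1. The fourth sequence is the mature miRNA of Mir196a-1 with its seed in capitals, because the hairpin sits at the edge of the peak with the largest rise. The printed miRNA itself (chr11:96265187-96265208) lies outside that peak, which ends at 96265181.
Gm31954: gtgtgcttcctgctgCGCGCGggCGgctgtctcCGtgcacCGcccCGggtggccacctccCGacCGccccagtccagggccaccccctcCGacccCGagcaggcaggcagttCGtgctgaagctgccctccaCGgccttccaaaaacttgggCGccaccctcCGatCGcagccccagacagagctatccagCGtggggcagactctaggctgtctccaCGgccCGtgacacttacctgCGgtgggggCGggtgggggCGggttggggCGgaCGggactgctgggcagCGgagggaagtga
Ebf1: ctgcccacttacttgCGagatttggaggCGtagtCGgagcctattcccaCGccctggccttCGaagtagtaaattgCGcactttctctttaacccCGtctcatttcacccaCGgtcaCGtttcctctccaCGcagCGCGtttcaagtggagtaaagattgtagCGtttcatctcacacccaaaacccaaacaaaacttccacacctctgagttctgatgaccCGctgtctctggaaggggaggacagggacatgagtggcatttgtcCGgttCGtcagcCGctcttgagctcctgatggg
Neurod2: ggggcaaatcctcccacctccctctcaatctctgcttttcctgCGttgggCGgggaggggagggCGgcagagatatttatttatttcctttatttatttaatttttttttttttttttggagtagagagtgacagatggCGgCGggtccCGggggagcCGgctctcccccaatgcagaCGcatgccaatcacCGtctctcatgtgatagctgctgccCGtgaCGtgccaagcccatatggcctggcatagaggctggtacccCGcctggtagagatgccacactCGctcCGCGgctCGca
mmu-miR-196a-5p: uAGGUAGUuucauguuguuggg

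Of 2289 chromosome 11 promoters in the RefSeq table, 16.9% had their start site in a peak among the strongest 5% of all peaks by the peak caller's fold, against 11.9% of 30562 promoters elsewhere. Those chromosome 11 promoters held a median of 12 CG in 300 bases. The 14.3% in peaks of the strongest 25% below that class held a median of 5, and the 64% without a peak held a median of 15. Elsewhere in the genome the medians were 14 in the strongest 5% and 7 without a peak, so the order of these 2 classes on chromosome 11 was not that of the other chromosomes.

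The peaks of chromosome 11 were the widest of the 20 chromosomes. Their median width was 3238 bp, against 2314 bp elsewhere, and 417 were at least 20 kb wide. Their median caller fold, a value of the authors' peak caller for the combined peak, was 1.59, against 1.53 elsewhere, and also ranked 1 of 20. Of the 5808 peaks, 9.54% were among the strongest 5% of all peaks by that fold, against 4.73% of peaks elsewhere. By H3K27me3 over input in WT control, 188 chromosome 11 peaks were among the strongest 5% of all, against 554 by caller fold. In classes that split all peaks evenly, the highest then held 929, against 2162 by caller fold, and the lowest 2156, against 1069. Within every caller fold class, H3K27me3 over input in WT conditions lay below that of peaks elsewhere. The ratio was 0.8635 in the weakest class and 0.9342 in the strongest. The caller fold and width values come from 1 combined peak set. The libraries that entered it were not given in the sources used here. The part of the extra chromosome 11 DNA described next in them was not tested.

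Chromosome 11 made up more of both the H3K27me3 and the input counts in the KO lines. For every 100 counts in peaks of the rest of the genome, chromosome 11 peaks held 12.1 and 12.1 H3K27me3 counts in the line labelled KO control at 0 h and 48 h, 10.6 and 10.6 in KO transgene, 8.90 and 8.95 in WT control and 8.68 and 8.74 in WT transgene. In input the counts per 100 were 12.5 and 12.5 in the line labelled KO control at 0 h and 48 h, 11.1 and 11.1 in KO transgene, 9.25 and 9.19 in WT control and 8.998 and 8.996 in WT transgene. In both assays all 4 KO libraries lay above all 4 WT libraries, and the line labelled KO control lay above KO transgene.

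The KO over WT ratio of the chromosome 11 share was 1.28 in H3K27me3 and 1.29 in input (exact two-sided permutation of 4 against 4 libraries, p = 0.0286 each, the smallest p that 70 splits allow; p = 0.333 when whole lines are exchanged, the smallest that 6 splits allow). By line, the input ratio was 1.36 for the line labelled KO control over WT control (exact binomial 95% interval 1.35 to 1.36) and 1.23 for KO transgene over WT transgene (1.23 to 1.23). The H3K27me3 ratios of the same lines were 1.35 (1.35 to 1.36) and 1.22 (1.22 to 1.22). A comparison of 3 copies with 2 in every cell would give 1.5, and both lines lay below it. Among the other 19 chromosomes the input ratio of KO over WT ran from 0.990 on chromosome 3 to 1.01 on chromosome 5. By the same exact permutation of 4 against 4, chromosomes 4, 5, 14 and 17 also reached p = 0.0286 in input. Chromosomes 2, 8, 9, 14 and 15 reached it in H3K27me3, where ratios off chromosome 11 ran from 0.986 to 1.01. Adjusted over all chromosomes, the exact permutation p of chromosome 11 was 0.114 in input and 0.0952 in H3K27me3. The p thus does not set chromosome 11 apart, whereas the size of its ratio does. Background and chromosome 11 copy number cannot be told apart in these 4 lines, since both KO lines and neither WT line had the excess.

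Per input, the H3K27me3 of the chromosome did not differ detectably between backgrounds. H3K27me3 over input, each taken against the rest of the genome, was 0.965 and 0.967 in the line labelled KO control at 0 h and 48 h, 0.960 and 0.960 in KO transgene, 0.963 and 0.973 in WT control and 0.964 and 0.972 in WT transgene. The groups overlapped, and all 8 values lay below 1. The KO over WT ratio per input was 0.995 (exact permutation of 4 against 4, p = 0.2), with the 4 matched pairs of line type and time between 0.988 and 1.00. The same ratio on the other 19 chromosomes ran from 0.991 on chromosome 8 to 1.01 on chromosome 18, and chromosome 11 ranked 14 of 20.

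**Figure D1:**
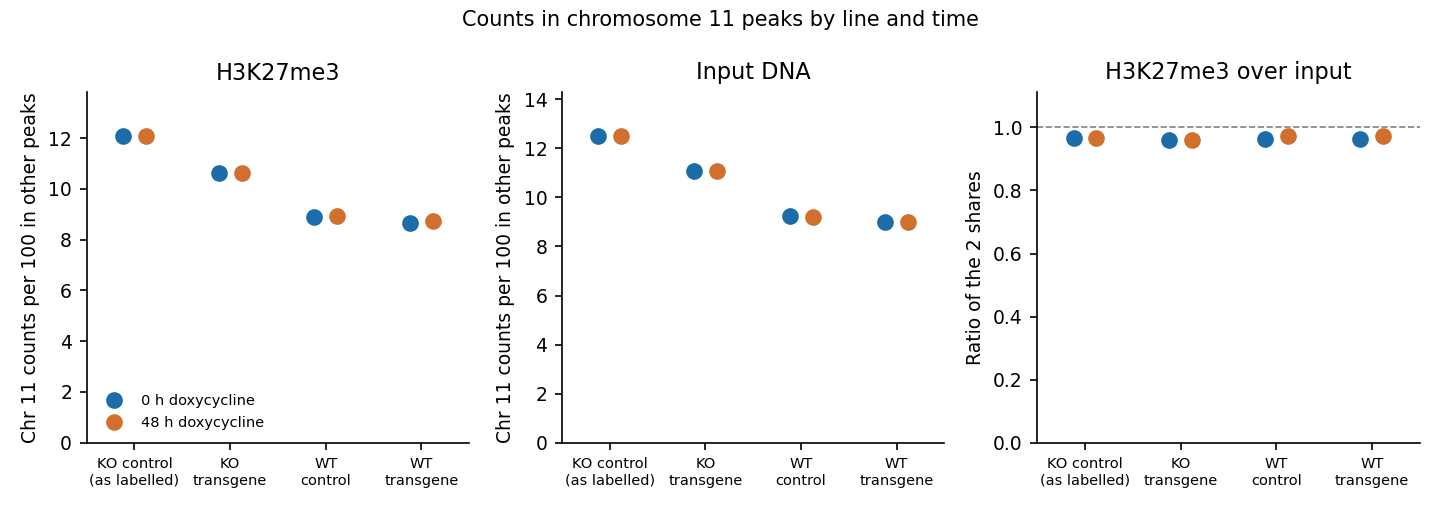
Counts in chromosome 11 peaks per 100 counts in all other peaks for H3K27me3 (left) and input (middle), and the ratio of these shares (right), by line, with 1 point per library or condition at 0 h and 48 h. The KO lines sit above the WT lines in both assays, while all 8 ratios lie between 0.960 and 0.973.

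The excess ran along the whole chromosome. In each of 13 windows of 10 Mb, the input ratio of KO over WT lay between 1.27 (40 to 50 Mb) and 1.32 (120 to 130 Mb), and the 4 KO libraries lay above the 4 WT libraries in every window (exact permutation, adjusted p = 0.0286 over the windows). The H3K27me3 ratio ran from 1.25 (30 to 40 Mb) to 1.30 (20 to 30 Mb). By line, the input ratio ran from 1.33 to 1.41 for the line labelled KO control and from 1.21 to 1.24 for KO transgene, so the windows of one line did not reach the level of the other. No window stood at a ratio of 1 in input.

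Per input, the 13 windows lay between 0.965 (120 to 130 Mb) and 1.01 (20 to 30 Mb). The 2 windows at the smallest p that 4 against 4 allows (0.0286, exact permutation) had an adjusted p of 0.186. With 13 windows adjustment can be passed only where most windows reach that smallest p, so the design could not call a difference in a few windows. The lines did not share their extremes. The line labelled KO control over WT control was lowest at 120 to 130 Mb (0.940) and highest at 110 to 120 Mb (1.02), whereas KO transgene over WT transgene was lowest at 30 to 40 Mb (0.965) and highest at 20 to 30 Mb (1.03).

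**Figure D2:**
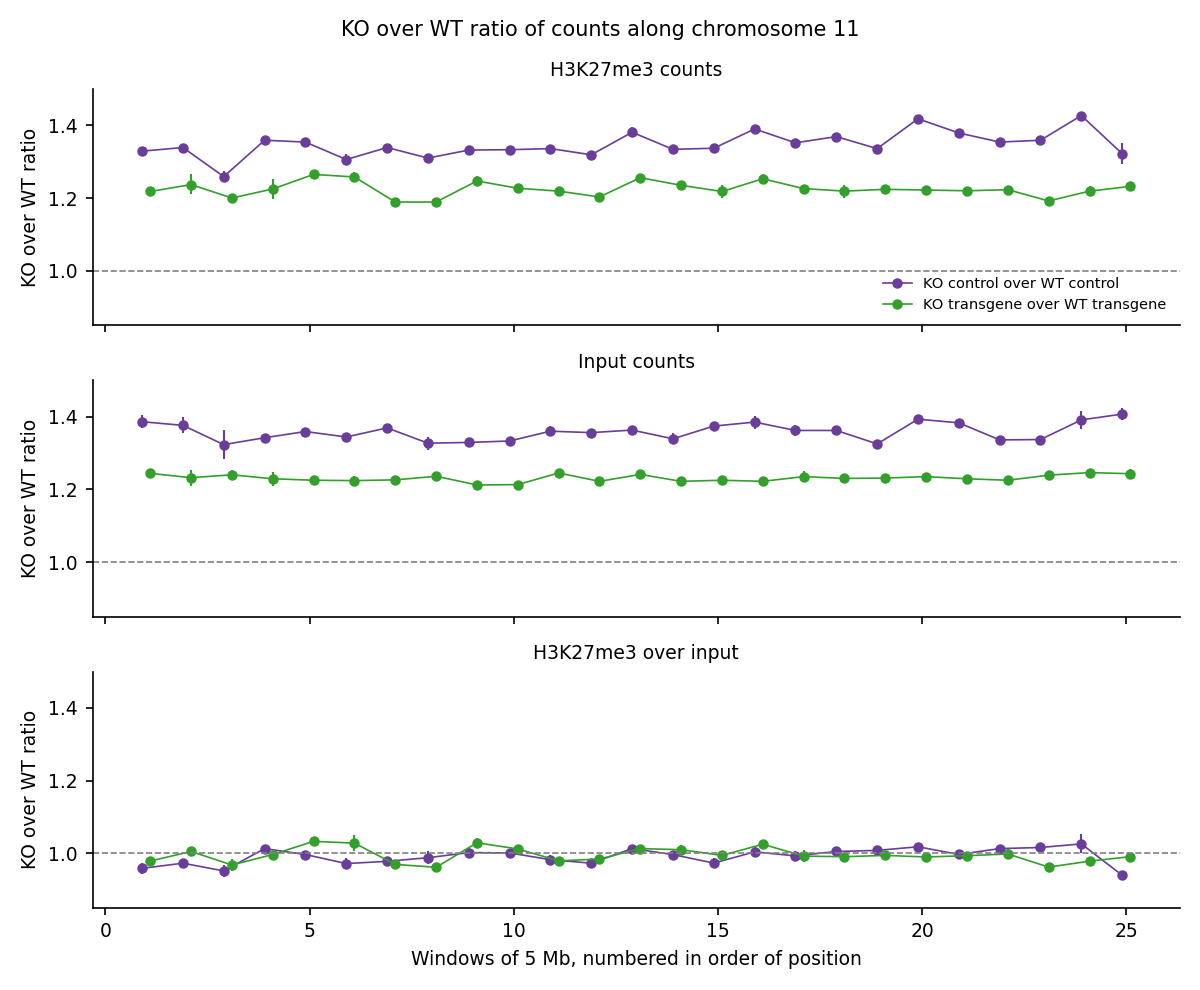
KO over WT ratio of H3K27me3 counts, input counts and H3K27me3 over input in 25 windows of 5 Mb along chromosome 11, each relative to all peaks off the chromosome. Points are the mean of both times and bars join the 0 h and 48 h ratios; both lines run level above 1 in the upper panels and near 1 in the lowest panel.

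By peak width the ratios per input lay between 0.990 and 1.01, in tests that cannot call 1 class alone, since the smallest p of 4 against 4 (0.0286) does not pass adjustment over 5 classes unless it is shared by most of them. Widths fell into 4 classes that hold equal numbers of all peaks, with limits of 1100, 2356 and 5214 bp, and each class was set against peaks of the same class on other chromosomes. The KO over WT ratio per input was 1.00 in the narrowest class (1108 peaks), 1.01 in the next (1207), 0.994 in the next (1434) and 0.993 in the widest (2059). In the 417 peaks of 20 kb or more it was 0.990, with all 4 pairs between 0.989 and 0.992 (exact permutation p = 0.0571, adjusted p = 0.286). The input ratio was 1.29 in each of these classes. Wide peaks carried more mark: H3K27me3 over input, set against all peaks off the chromosome, averaged 1.02 ± 0.004 in KO and 1.02 ± 0.006 in WT conditions in the widest class, against 0.711 ± 0.01 in KO and 0.719 ± 0.02 in WT conditions in the narrowest (SD, n = 4 each).

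The same held by strength of the peak. In classes of the peak caller's fold, the ratio per input was 1.00 in the weakest class (1069 peaks), 0.995 and 0.995 in the 2 classes between, and 0.991 in the strongest class of 2162 peaks. In the 155 peaks of the strongest 1% it was 0.992 (exact permutation p = 0.0571, adjusted p = 0.171), and all 4 pairs were lower in KO. Set against all peaks off the chromosome in place of the strongest 1% there, H3K27me3 over input in those 155 peaks averaged 1.58 ± 0.04 in KO and 1.54 ± 0.05 in WT conditions (SD, n = 4 each), so the sign of this small difference turned with the comparator. With classes taken from the WT control line alone and WT transgene as the only comparator, the ratios lay between 0.989 and 1.00. Peaks that touch a gene span gave 0.995 and peaks outside gene spans 0.992. These tests have the limit given for the width classes, and the exact permutation without the WT control line cannot go below p = 0.0667.

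**Figure D3:**
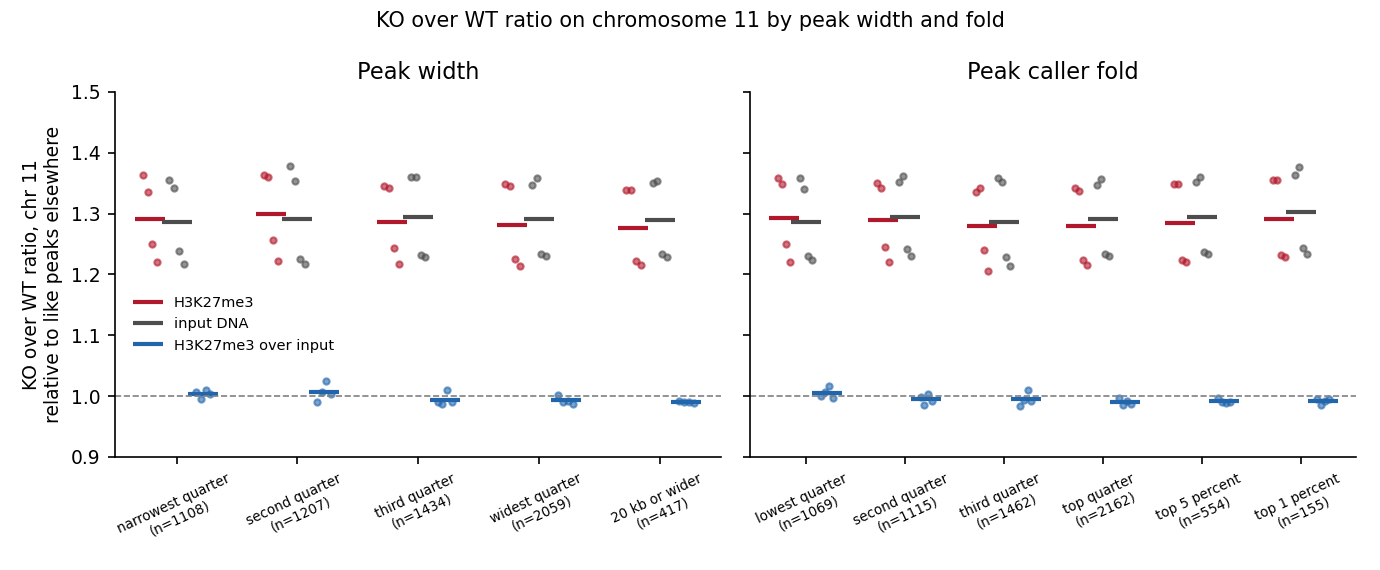
KO over WT ratio of H3K27me3 counts, input counts and H3K27me3 over input in chromosome 11 peaks, by class of peak width (left) and of the peak caller's fold (right), each relative to peaks of the same class on other chromosomes. Dashes are the means over 4 pairs and points the pairs; the H3K27me3 and input dashes lie between 1.28 and 1.30, and the ratios per input between 0.990 and 1.01.

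Single peaks showed how a test without input reads this chromosome. In H3K27me3 counts alone, 2942 of 5808 chromosome 11 peaks (50.7%) rose in KO and 0 fell (edgeR quasi-likelihood test, Benjamini-Hochberg adjusted p under 0.05), against 3.88% of all peaks tested that rose and 1.09% of those off the chromosome. In input alone, 1969 of 5763 tested peaks (34.2%) rose and 0 fell, against 2.03% of all peaks and 0.0386% off the chromosome. Of the 2942 peaks higher in H3K27me3, 56.5% were also called higher in input, and 1205 (41%) had a per-input log2 difference below 0. Over all 5808 chromosome 11 peaks 46.8% lay above 0 per input, so a value below 0 was at least as common on the chromosome as a whole. The median log2 difference was 0.35 in H3K27me3 and 0.36 in input, against -0.01 and 0.00 off the chromosome.

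Per input, 8 chromosome 11 peaks rose and 2 fell, which is 0.172% of 5808, against 0.067% of all 102926 peaks tested (0.0525% that rose, 0.0146% that fell) and 0.0608% off the chromosome. At an unadjusted p under 0.05 there were 513 on chromosome 11 (8.83%), against 7.1% off it. The median per-input difference was -0.02 on the log2 scale on the chromosome and -0.01 elsewhere, and 90% of the 5808 peaks lay between -0.44 and 0.41. The count of 8 rises was 3 without the KO control condition at 0 h, 4 without WT control at 0 h, WT control at 48 h or KO control at 48 h, 5 without WT transgene at 0 h, and 0 without either control line. DESeq2 called none on or off the chromosome, with 50 chromosome 11 peaks at an unadjusted p under 0.05. That is far below the share that no difference at all would give at this threshold, so a count of 0 from DESeq2 per input says little. Tests of time, of the transgene and of induction called 0 peaks on the chromosome with edgeR, and DESeq2 called 0 as well. At an unadjusted p under 0.05 edgeR had 328, 348 and 288 there, and it called 0.00194%, 0.000972% and 0.000972% of all peaks. The transgene and induction terms follow the labels, although input at the Firre peak was as high in the line labelled KO control as in KO transgene.

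**Figure D4:**
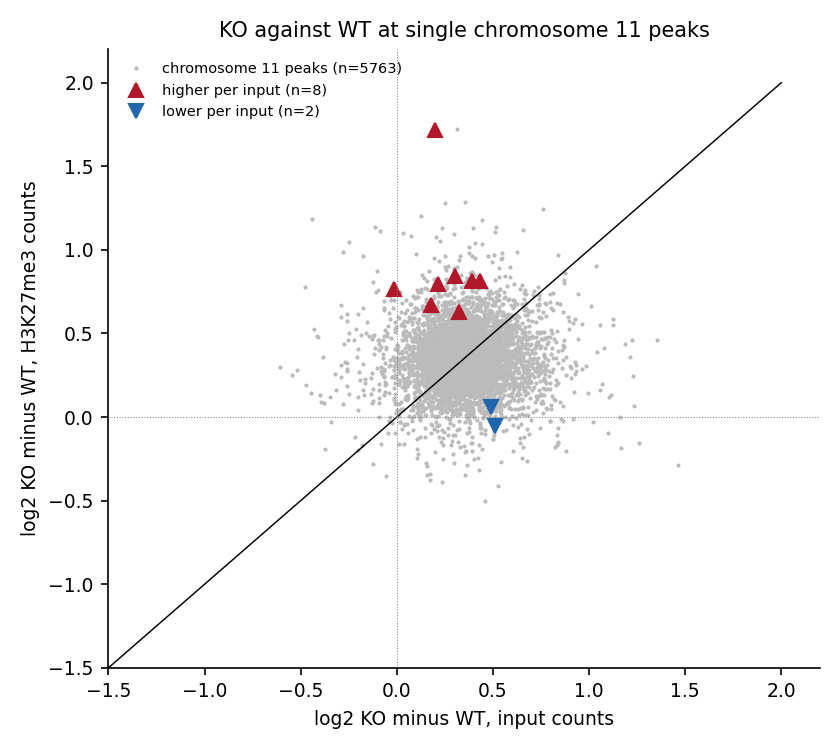
Log2 KO minus WT difference of H3K27me3 counts (vertical axis) against that of input counts (horizontal axis) for 5763 chromosome 11 peaks tested in both assays, relative to peaks off the chromosome, with a line of equal change. The cloud centres near 0.35 in H3K27me3 and 0.36 in input; triangles are the 8 peaks higher and 2 peaks lower per input.

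The largest rise was a 2.64 kb peak over Gm53, an RNA gene at the Hoxb9 end of the HoxB cluster (chr11:96262540-96265181), whose end holds 18 of the 102 bases of the Mir196a-1 hairpin. Its miRNA, miR-196a, directs cleavage of Hoxb8 mRNA in mouse. The peak had 128 and 128 H3K27me3 counts in the line labelled KO control at 0 h and 48 h, 88 and 105 in KO transgene, 41 and 35 in WT control and 33 and 42 in WT transgene. Input counts were 27 and 58 in the line labelled KO control at 0 h and 48 h, 47 and 50 in KO transgene, 54 and 46 in WT control and 36 and 47 in WT transgene. All 4 KO libraries lay above all 4 WT libraries in H3K27me3, while the input counts overlapped.

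Per input that peak was 1.48 ± 0.20 higher in KO on the log2 scale (SE; edgeR adjusted p = 1.91e-08), 1.87 ± 0.28 in the line labelled KO control (adjusted p = 8.59e-07) and 1.06 ± 0.29 in KO transgene (edgeR adjusted p = 0.358). Its input difference alone was 0.20 ± 0.15, below the median of the chromosome. Over the 3 peaks of the Gm53 region, H3K27me3 over input averaged 0.997 ± 0.21 in KO and 0.394 ± 0.03 in WT conditions (SD, n = 4 each), a log2 difference of 1.31 ± 0.15 (SE; edgeR adjusted p = 3.81e-12 over all gene regions). The adjoining peak over Hoxb1 to Hoxb9, 120 kb wide and the strongest of the chromosome with a caller fold of 4.85, had 2.64 ± 0.07 in KO and 2.53 ± 0.11 in WT conditions (SD, n = 4 each) and no called difference (log2 0.06 ± 0.04, edgeR adjusted p = 0.771).

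Ntn1 encodes netrin-1, a secreted guidance cue for axons, and 3 of its peaks and the adjoining Gm31954 peak rose. The Gm31954 peak (chr11:68395001-68410883), 8.17 kb from Ntn1, holds the first printed sequence. H3K27me3 over input there was 1.79 and 1.97 in the line labelled KO control at 0 h and 48 h, 1.54 and 1.72 in KO transgene, 1.11 and 1.18 in WT control and 1.14 and 1.23 in WT transgene. The groups did not overlap, and the rise was 0.58 ± 0.08 on the log2 scale (SE; edgeR adjusted p = 3.79e-08). Its input difference was 0.21 ± 0.07 and its H3K27me3 difference 0.80 ± 0.05.

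The 3 Ntn1 peaks rose by 0.53 ± 0.08 (chr11:68338581-68357400, edgeR adjusted p = 5.25e-07), 0.47 ± 0.11 (chr11:68210662-68220762, adjusted p = 0.0388) and 0.37 ± 0.08 (chr11:68377294-68393274, adjusted p = 0.0131) on the log2 scale (SE). Their input differences were 0.30, 0.18 and 0.43. Over all 18 peaks of the gene (chr11:68209364-68386826), H3K27me3 over input was 1.12 and 1.17 in the line labelled KO control at 0 h and 48 h, 0.927 and 0.989 in KO transgene, 0.756 and 0.787 in WT control and 0.755 and 0.786 in WT transgene. The 4 WT conditions lay within 0.0179 (SD) of their mean, and each KO condition lay above them. The gene region rose by 0.44 ± 0.04 (SE; edgeR adjusted p = 8.47e-17), and it was called in both lines, with 0.57 ± 0.05 in the line labelled KO control (adjusted p = 1.27e-17) and 0.31 ± 0.05 in KO transgene (edgeR adjusted p = 2.62e-05).

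Of the other 3 rises, the Etv4 peak (chr11:101770129-101794050) covers the gene of an ETS transcription factor that acts downstream of FGF signals. H3K27me3 over input was 1.46 and 1.33 in the line labelled KO control at 0 h and 48 h, 1.13 and 1.33 in KO transgene, 0.810 and 0.820 in WT control and 0.972 and 1.30 in WT transgene, so the groups overlapped through WT transgene at 48 h. The rise was 0.42 ± 0.07 over both lines (SE; edgeR adjusted p = 9.82e-06), 0.74 ± 0.10 in the line labelled KO control and 0.13 ± 0.09 in KO transgene. The next peak along the chromosome (chr11:101800323-101818568) was called only in the contrast of the line labelled KO control with WT control (0.57 ± 0.11, edgeR adjusted p = 0.00102), and the difference between lines was not called there (adjusted p = 0.439).

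A 3.72 kb peak over the RNA gene Gm30060 (chr11:63958115-63961832) lies 795 bp from Cox10, which encodes an enzyme of heme A synthesis. It had 1.43 ± 0.18 over input in KO and 0.831 ± 0.13 in WT conditions (SD, n = 4 each) and rose by 0.77 ± 0.18 (SE; edgeR adjusted p = 0.0343). Its input log2 difference was -0.02 ± 0.15 (SE), below the chromosome's median of 0.36, from 28 to 56 input counts per library. Whether this input was low in KO by counting error, which would raise the per-input value, was not tested. The Sez6 peak (chr11:77927500-77947528), over a gene for a neuronal membrane protein, had 1.63 ± 0.17 over input in KO and 1.31 ± 0.09 in WT conditions (SD, n = 4 each) and rose by 0.30 ± 0.07 (SE; edgeR adjusted p = 0.0488).

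At both peaks that fell, the input difference lay above the chromosome's median of 0.36. H3K27me3 was near its WT level there, below the chromosome's median difference of 0.35. Whether input was high in KO by counting error, which would lower the per-input value, was not tested. Over Prcd, which encodes a protein of photoreceptor discs (chr11:116659131-116667794), H3K27me3 over input averaged 0.791 ± 0.20 in KO and 1.15 ± 0.18 in WT conditions (SD, n = 4 each), with overlapping groups. The fall was -0.56 ± 0.11 (SE; edgeR adjusted p = 0.00494), from log2 differences of -0.05 ± 0.07 in H3K27me3 and 0.51 ± 0.09 in input. The other was an intergenic peak (chr11:112041830-112057720), with 0.734 ± 0.04 in KO and 0.994 ± 0.08 in WT conditions (SD, n = 4 each), which did not overlap. It fell by 0.43 ± 0.09 (SE; edgeR adjusted p = 0.0157), with 0.06 ± 0.06 in H3K27me3 and 0.49 ± 0.08 in input.

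**Figure D5:**
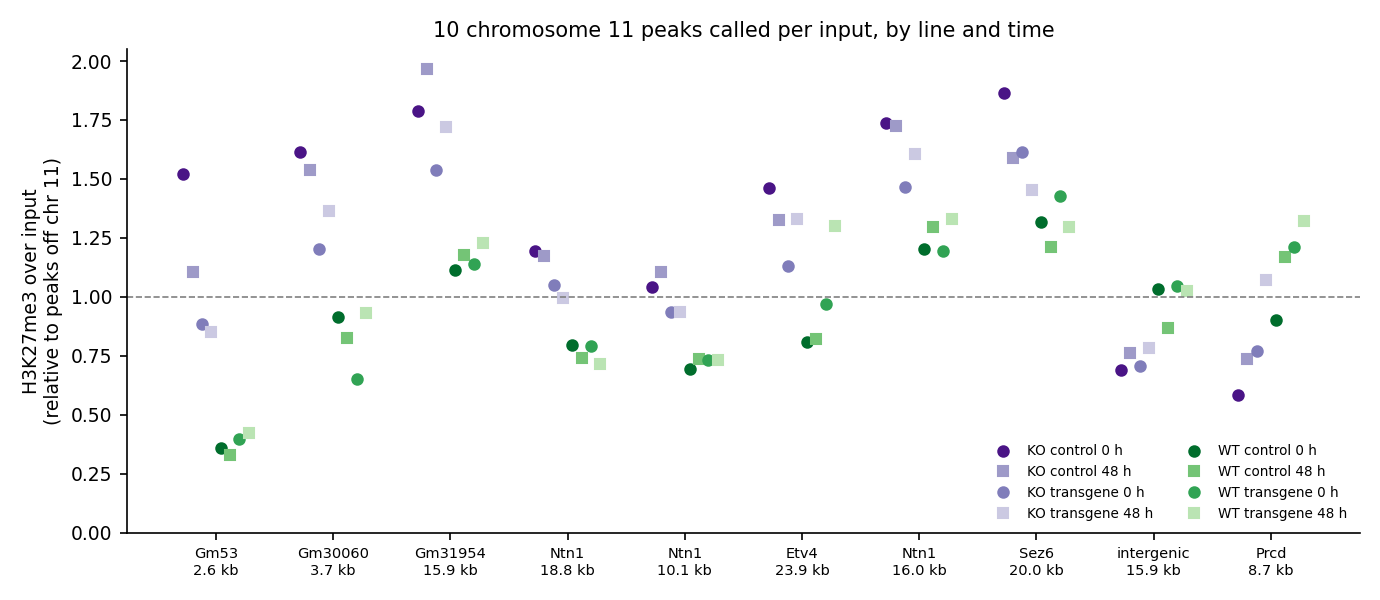
H3K27me3 over input, relative to peaks off chromosome 11, at the 10 chromosome 11 peaks called per input in KO against WT, with 1 point per condition (circles 0 h, squares 48 h) in the order KO control, KO transgene, WT control, WT transgene. KO conditions lie above WT conditions at 7 of the 8 peaks that rose, and groups overlap at Etv4 and Prcd.

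Calls were also made line by line, in fits that hold only the spread between 0 h and 48 h within a line. Against WT control, 8 chromosome 11 peaks rose per input and 0 fell, and 5 of the 10 peaks called over both lines were among them (473 at an unadjusted p under 0.05; 0.0554% of all peaks called). KO transgene against WT transgene gave 0 calls with edgeR and 0 with DESeq2 (383 and 4 at an unadjusted p under 0.05; 0.00291% of all peaks called by edgeR). The 4 under DESeq2 are again far below the share that no difference would give, so its 0 calls say little. The difference between these contrasts was called at 0 chromosome 11 peaks (359 at an unadjusted p under 0.05 with edgeR, 2 with DESeq2; 0.00194% of all peaks), so peak by peak the lines were not shown to differ. In the sums described below, the same test called 2 of 1538 gene regions (Tenm2 and Etv4; 0.0269% of all regions called) and 2 of 118 windows of 1 Mb (0.239% of all windows). At all 10 called peaks the sign was the same in both lines. They were picked by a test over both lines together, which favours a shared sign, so this does not show that the lines agree.

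None of the 10 strongest peaks by caller fold was called per input. With 0.172% called on the chromosome and 0.067% of all peaks, 10 peaks could hardly show otherwise. The 10 with the highest caller fold lie over HoxB, Neurod2, Tbx2, Hic1, Dlx4, Otx1, Tlx3, Fgf11, Wnt3 with Wnt9b, and Bcl6b with Slc16a13, mostly genes of developmental transcription factors and secreted signals. At Neurod2 (52 kb wide, caller fold 4.16) H3K27me3 over input was 2.23 and 2.17 in the line labelled KO control at 0 h and 48 h, 2.06 and 2.23 in KO transgene, 2.04 and 2.12 in WT control and 2.21 and 2.25 in WT transgene. The groups overlapped, with log2 differences of 0.48 ± 0.04 in H3K27me3, 0.47 ± 0.04 in input and 0.01 ± 0.05 per input (SE; edgeR adjusted p = 0.992 for the last). Tbx2, a T-box repressor of limb and heart development, had 2.10 ± 0.15 over input in KO and 1.99 ± 0.14 in WT conditions, and Dlx4, a homeobox gene, had 1.99 ± 0.11 in KO and 2.00 ± 0.24 in WT conditions (SD, n = 4 each). Hic1, a transcriptional repressor, was lower in all 4 pairs (1.87 ± 0.22 in KO, 2.14 ± 0.28 in WT; SD, n = 4 each) without passing the test (edgeR adjusted p = 0.634). Otx1, a homeobox gene of the forebrain, was higher in all 4 pairs (2.099 ± 0.09 in KO, 1.87 ± 0.17 in WT; SD, n = 4 each), with log2 differences of 0.56 in H3K27me3 and 0.39 in input (edgeR adjusted p = 0.514 per input). Fgf11 had 1.97 ± 0.36 in KO and 1.53 ± 0.08 in WT conditions (SD, n = 4 each), with 0.51 in H3K27me3 and 0.17 in input (edgeR adjusted p = 0.754 per input). Wnt3 with Wnt9b, secreted signals, had 2.01 ± 0.11 in KO and 1.84 ± 0.14 in WT conditions (SD, n = 4 each; edgeR adjusted p = 0.501 per input).

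Of the 5 widest peaks, which have more counts, none was called as a peak, beside 0.172% called on the chromosome. In 5 peaks that says little. The 149 kb peak over Kcnip1, a partner of neuronal potassium channels, had 1.10 ± 0.02 over input in KO and 1.20 ± 0.06 in WT conditions, lower in all 4 pairs (SD, n = 4 each; edgeR adjusted p = 0.245 over all peaks). The same peak was called as a fall when tested as the region of Gm39677 over all gene regions (edgeR adjusted p = 0.0356), a call that was lost under TMM factors (adjusted p = 0.0663) and with chromosome 11 totals (adjusted p = 0.0548). The 117 kb peak over Cacna1g, a T-type calcium channel, and Abcc3, a transporter, had 1.32 ± 0.04 in KO and 1.31 ± 0.03 in WT conditions (SD, n = 4 each). Slit3, a secreted guidance cue with a 113 kb peak, had 1.01 ± 0.03 in KO and 1.03 ± 0.04 in WT conditions, and Tmem132e, with a 107 kb peak, had 1.45 ± 0.04 in KO and 1.37 ± 0.05 in WT conditions (SD, n = 4 each). In these 4 wide peaks input was 0.33 to 0.37 higher in KO on the log2 scale.

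Summed over gene regions, which are all peaks touching a gene span with 2000 bp on either side, 16 of 1538 chromosome 11 regions rose per input and 5 fell, or 1.37%, against 0.906% of all 22297 regions (edgeR adjusted p under 0.05). The median log2 difference was -0.01 on the chromosome and 0.00 elsewhere. Ebf1, with 40 peaks, had 0.903 ± 0.02 over input in KO and 0.783 ± 0.05 in WT conditions (SD, n = 4 each), a rise of 0.21 ± 0.03 (SE; edgeR adjusted p = 3.2e-07). It was called in both lines, and at 0.28 ± 0.04 the rise in KO transgene was the larger value (edgeR adjusted p = 4.33e-08), against 0.14 ± 0.04 in the line labelled KO control (adjusted p = 0.048), a difference that was not called (adjusted p = 0.508). Smaller rises were called at Hoxb13, the most posterior gene of its cluster (0.16 ± 0.04), at Nog, a secreted BMP antagonist (0.20 ± 0.06), at Atp2a3, a calcium pump (0.30 ± 0.07), and at Tom1l2, an endosomal sorting adaptor (0.32 ± 0.08; SE). Hoxb13 was higher in 3 of 4 pairs, by 0.29 in the line labelled KO control and 0.04 in KO transgene (edgeR adjusted p = 0.907 for the last). Nog passed narrowly (edgeR adjusted p = 0.0499), and Nog, Atp2a3 and Tom1l2 were called in neither line alone. Falls were called at Cdr2l (-0.53 ± 0.14), Arhgap27 (-0.38 ± 0.09), Tbkbp1, an adaptor of the TBK1 kinase (-0.31 ± 0.07), Gm39677 inside the Kcnip1 peak (-0.12 ± 0.03) and Gria1, a glutamate receptor subunit (-0.10 ± 0.03; SE). Under both other scalings 3 falls were left, without Gm39677 and Gria1 (edgeR adjusted p = 0.0783 and 0.0591 at Gria1). The remaining called regions were 2610035D17Rik and LOC115487747, Mir6406 inside Ntn1, Gm11190 beside Sez6, and regions that share peaks already described.

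Counts by gene list stand beside the 1.37% of chromosome 11 regions and 0.906% of all regions called, and in lists this small a single call lies above those shares. Of 27 regions of other developmental transcription factors 1 rose, Ebf1, with a list median of 0.04, and of 29 regions of secreted signals and receptors 2 rose, Ntn1 and Nog, with a median of 0.06. Of 24 regions of neuronal channels and receptors 1 fell, Gria1, with a median of 0.00. Of 2 HoxB regions 1 rose, that of Hoxb13. None of 2 imprinted regions, 4 regions of the globin locus, 13 of type I keratins or 4 of broadly expressed genes was called by edgeR. The 3 regions of pluripotency markers with a peak lie on other chromosomes, and calls at them were not looked up. The median over all 1538 regions of the chromosome was -0.01. Mark levels differed more between lists than between backgrounds, with median H3K27me3 over input of 2.17 for HoxB, 1.51 for the transcription factors, 1.04 for signals and receptors and 0.870 for broadly expressed genes, against 0.904 over all regions.

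In windows of 1 Mb, where counts are larger, 15 of 118 chromosome 11 windows were called per input, 4 higher and 11 lower, or 12.7%, against 7.6% of all 2513 windows (3.9% higher, 3.7% lower). The split between directions depended on the scaling, with 7 higher and 7 lower under TMM factors off the chromosome and 7 higher and 6 lower with chromosome 11 totals as library sizes. Their folds per input ran from 0.903 to 1.06, and the input ratio over all 118 windows from 1.19 to 1.40. The window at 4 to 5 Mb had 0.866 ± 0.03 over input in KO and 0.959 ± 0.02 in WT conditions (SD, n = 4 each; edgeR adjusted p = 8.62e-05), and that at 81 to 82 Mb, over the acid-sensing channel gene Asic2, had 0.940 ± 0.01 in KO and 0.991 ± 0.003 in WT conditions (SD, n = 4 each; edgeR adjusted p = 8.62e-05). The call at 81 to 82 Mb was lost under TMM factors (window_81, edgeR adjusted p = 0.165) and kept with chromosome 11 totals. The 4 higher windows were those at 68 to 69 Mb (Ntn1), 63 to 64 Mb, 72 to 73 Mb (Atp2a3) and 44 to 45 Mb (Ebf1).

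Input counts on the chromosome varied between libraries about as much as counting allows. Chi-square per degree of freedom over its peaks, after scaling to the chromosome's own total, was 0.992 to 1.04 between 0 h and 48 h of a line and 1.00 to 1.04 between KO and WT lines at 1 time. In H3K27me3 it was 1.07 to 1.20 within lines and 1.263 to 1.659 between KO and WT lines. The mean for the line labelled KO control against WT control was 1.65 on chromosome 11, against 1.24 to 1.48 on the other chromosomes, and for KO transgene against WT transgene 1.29, against 1.12 to 1.24. Chromosomes were not matched on counts per peak, and the part of counts in these differences was not tested.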

How the data were processed

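The deposited count table gives raw counts of reads, as whole numbers, for each library at each consensus peak. The deposited peak list gives a score, a fold enrichment ratio and −log10 p and q values of the authors' peak caller. The submitters' processing notes name mm10, DESeq2 1.26.0, featureCounts, MACS2 2.2.71 and BWA 0.7.17-r1188, with no order or role. Starts of peaks stand as deposited, because nothing in the list tells if counting begins at 0 or at 1. Reads that fall on repeated sequence can be counted or dropped depending on mapping settings not given in the sources used here.

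Members and gene lists were chosen with earlier results of these data known, and 1 gene list is not reported here. Counts on chromosome 11 were divided by counts off it, per library, and H3K27me3 by matched input, and both backgrounds were compared by an exact permutation test, two-sided, with 4 conditions each. Peaks, 1 Mb windows and gene regions (RefSeq spans of GRCm38.p6 ± 2000 bp) were tested over the whole genome with edgeR 4.0.16 (R 4.3.3), library sizes being counts off chromosome 11 and p-values adjusted by Benjamini-Hochberg at 0.05. The model held condition, assay, and assay by background, transgene and time (4 residual degrees of freedom). Contrasts of lines used assay by line (3) and induction a transgene by time term (2). The spread in the fits of background is that between times and lines. In the contrasts of lines and in induction it is only that between 0 h and 48 h within a line. Named peaks were the calls in KO against WT with a mean of at least 20 counts in both assays and 1 direction in all 4 pairs, up to 5 of the smallest adjusted p in each other test, and the peaks of highest fold and largest width. On simulated counts over 102832 peaks the per-input KO against WT test recovered 31 of 100 changes of 0.5 and 70 of 100 changes of 1 on the log2 scale, with 5 false calls, 0 on chromosome 11. The simulation used 1 profile with a small fixed dispersion and no spread between lines. Its recovery and false calls therefore do not carry over to these data, with 2 lines per background. Alternatives were other library sizes, TMM factors, filters, strata and models, DESeq2 1.42.0, limma-voom 3.58.1, and each condition or line left out.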

Additional observations from a re-analysis of the deposited data

Results flagged for a closer look

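Chance flags about 1 in 20 groups of 4, and 56 groups were examined. At the Tlx3 peak, over a homeobox gene of sensory neurons, the KO transgene condition at 48 h stood apart from the other KO conditions at 1.69 for H3K27me3 over input, and the WT transgene condition at 0 h from the other WT conditions at 2.36. In the Ntn1 peak at chr11:68210662-68220762, WT control at 0 h stood lowest of the WT conditions at 0.693, within a narrow group. In the intergenic peak at chr11:112041830-112057720, WT control at 48 h stood lowest of the WT conditions at 0.870, and still above all KO conditions.

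The per-input difference of KO from WT differed between the pairs of lines in 4 places by edgeR's test of the difference itself. That test holds only the spread between 0 h and 48 h within a line. Over the Tenm2 region, 85 peaks at a gene for a synaptic adhesion protein, the difference between lines was 0.066 ± 0.014 on the log2 scale (SE; edgeR adjusted p = 0.0247), from -0.02 in the line labelled KO control and -0.09 in KO transgene. Over the Etv4 region it was 0.62 ± 0.13 (SE; edgeR adjusted p = 0.0256), from 0.74 in the line labelled KO control and 0.13 in KO transgene, where WT transgene at 48 h had 1.30 over input. In the window at 21 to 22 Mb it was -0.24 ± 0.05 (SE; edgeR adjusted p = 0.0204), from -0.08 in the line labelled KO control and 0.16 in KO transgene. In the window at 96 to 97 Mb, which holds HoxB, it was 0.10 ± 0.02 (SE; edgeR adjusted p = 0.0204), from 0.09 in the line labelled KO control and -0.01 in KO transgene.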

How the results depend on the processing

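The replicate number is 1 in every group, so no pairing by replicate was possible. Each H3K27me3 library was paired with its own input, and KO and WT conditions were matched by labelled transgene state and time alone. The chromosome-wide ratios of KO over WT kept their direction under every alternative. Without 1 line or at 1 time the exact permutation can no longer reach 0.05 (p = 0.0667 without a line, 0.333 at 1 time): the input ratio was 1.22 without KO control, 1.37 without KO transgene, 1.31 without WT control, 1.28 without WT transgene, 1.29 at 0 h and 1.29 at 48 h, and the H3K27me3 ratio 1.21, 1.37, 1.30, 1.27, 1.29 and 1.28 in the same order. With each condition left out these ranged from 1.27 to 1.32 and from 1.258 to 1.31, and the ratio per input from 0.993 to 0.997. The 2942 peaks higher in H3K27me3 alone became 1629 with DESeq2, 1359 without WT control, 1370 without KO control and 254 with chromosome 11 totals as library sizes, which remove the excess by construction (2323 to 2728 with each condition left out). The 1969 in input alone became 986, 528, 530 and 38 (1197 to 1809). Leaving out a control line leaves the contrast of the transgene lines, and fewer samples. Per-input rises were 0 with DESeq2 and without either control line (3 to 7 with each condition left out). DESeq2 per input could call little, given how few peaks it put at an unadjusted p under 0.05. Falls were 0 with DESeq2 and without any 1 line, and 4 with a minimum mean of 50 counts (1 to 2 with each condition left out). The contrast of the line labelled KO control with WT control gave 0 with DESeq2 (7 at an unadjusted p under 0.05) and 14 with the minimum of 50 (2 to 8). That of the transgene lines gave 2 with the minimum of 50 and 1 with limma-voom. The difference between lines gave 1 with the minimum of 50, TMM over all peaks and limma-voom (0 to 1), and time 0 to 1. With TMM factors off chromosome 11 and with chromosome 11 totals, 1 Mb windows called higher were 7 and 7 (4 in the reported fit), windows called lower 7 and 6 (11), and gene regions called lower 3 and 3 (5). The Gm53 peak was called in 18 of 21 alternatives, the Gm31954 peak and 1 Ntn1 peak in 19 of 22, Etv4 in 17, and the other 6 in 8 to 13. The cause was not tested. At a median of 46.4 input counts a single peak cannot show small differences per input.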
